A study of Mus musculus with 7 samples.

Results

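The beta globin and alpha globin loci were described by the CTCF and Rad21 peaks that lie on and around their genes in mouse liver chromatin. The beta locus was taken as the span of Hbb-b1, Hbb-b2, Hbb-bh1 and Hbb-y on chromosome 7, and the alpha locus as the span of Hba-a1 and Hba-x on chromosome 11, each extended by 100 kb on both sides in the mm9 build. Every peak that overlapped these windows by at least 1 bp was a member, which gave 36 peaks of the 137323 deposited. Of these, 20 were CTCF peaks (of 68667) and 16 were Rad21 peaks (of 68656). The beta window (chr7:110861038-111101754, 241 kb) held 4 CTCF and 2 Rad21 peaks, and the alpha window (chr11:32076400-32284465, 208 kb) held 16 CTCF and 14 Rad21 peaks.

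ChIP-seq, in which antibodies recover the DNA bound by a protein, was performed on livers of 8-week-old female CD-1 mice (Crl:CD1(ICR), an outbred stock), with 4 libraries for CTCF and 3 libraries for the cohesin subunit Rad21. No genetic change or treatment is given in the labels for either group. Peaks were called on the libraries of a factor pooled together, so each peak has 1 value, no spread between mice can be given, and no test between groups was made. The lists carry no read counts, so no depth is given for a value. Chromatin came from nuclei of whole liver, and the cell type in which a peak arose cannot be told apart.

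Globin genes encode the oxygen carriers of red blood cells. In the mouse, Hbb-b1 and Hbb-b2 (beta major and beta minor) and Hba-a1 and Hba-a2 (alpha) are the adult genes, whereas Hbb-y, Hbb-bh1 and Hba-x (zeta) are used by embryonic red cells. The beta genes are switched on by a distal enhancer cluster, the locus control region, which lies upstream of Hbb-y, and the whole beta cluster is embedded in genes of olfactory receptors. The alpha genes are switched on by enhancers that lie largely within introns of the neighbouring housekeeping gene Nprl3. CTCF is a zinc finger protein that binds a long, non-palindromic motif, and cohesin is the ring complex that extrudes DNA loops and tends to halt at CTCF whose motif points into the loop. Red cells are made in the liver of the fetus, and in the bone marrow and spleen of adult mice.

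A CTCF peak sharing 1 bp or more with a Rad21 peak was called CAC, any other CTCF peak was called Lone CTCF, and a Rad21 peak with no CTCF peak was called CNC. Fold enrichment is the pileup of reads at the summit relative to the local background computed by MACS2. It was compared within 1 factor only.

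The CTCF motif matches under the CTCF peaks are shown first, since their strand gives the direction in which each site points. A 20 bp matrix was learned from strong CTCF peaks on even-numbered autosomes, and a match within 100 bp of a summit was called at 15.32 bits or more, a score met by 1% of flanking windows without a peak. Each sequence below is from mm9, 5′ to 3′ on the strand of the motif, with the matched 20 bases in capitals. The 4 beta sites lie, from left to right, at chr7:110941590-110941639 (plus strand), chr7:110955568-110955617 (minus), chr7:111061674-111061723 (minus) and chr7:111091437-111091486 (minus), and the second and the fourth are the CAC peaks.
Beta site 1, Lone CTCF: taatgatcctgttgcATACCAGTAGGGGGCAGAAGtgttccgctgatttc
Beta site 2, CAC: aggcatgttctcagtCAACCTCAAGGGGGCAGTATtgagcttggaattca
Beta site 3, Lone CTCF: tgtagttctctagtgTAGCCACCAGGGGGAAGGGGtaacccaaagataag
Beta site 4, CAC: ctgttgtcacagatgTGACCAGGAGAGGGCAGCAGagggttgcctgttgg

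Of the alpha sites, 5 that carry the findings are shown: the strongest CTCF peak (chr11:32082680-32082729, plus), the strongest one within Nprl3 (chr11:32138637-32138686, minus), the site at the theta-like globin gene Hbq1b (chr11:32186914-32186963, minus), its copy at Hbq1a (chr11:32200019-32200068, minus) and the motif called for the first CTCF peak to the right of Hbq1a (chr11:32221375-32221424, minus), the higher-scoring of 2 matches in that peak.
Leftmost alpha site: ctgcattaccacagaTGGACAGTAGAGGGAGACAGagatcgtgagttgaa
Nprl3 intron site: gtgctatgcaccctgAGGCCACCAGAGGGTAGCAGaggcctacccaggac
Hbq1b site: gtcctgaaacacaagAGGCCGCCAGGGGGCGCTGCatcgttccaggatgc
Hbq1a copy: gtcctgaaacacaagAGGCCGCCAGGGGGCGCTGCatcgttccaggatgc
First CTCF peak right of Hbq1a: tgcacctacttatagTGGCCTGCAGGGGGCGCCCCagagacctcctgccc
The last 3 of these 5 lines hold the highest scores in either window, 24.72 bits at both theta copies and 24.26 bits beyond them, and the 50 bases at Hbq1b and Hbq1a are identical.

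None of the 6 member genes carried a CTCF or Rad21 peak on its body or within 1 kb of its start. Among autosomal protein-coding genes, 50.9% of starts had a CTCF peak within 1 kb and 50.5% had a Rad21 peak. The adult alpha gene Hba-a1 (chr11:32183511-32184465) was closest to CTCF, with 3.16 kb from its start to the nearest peak, followed by Hbb-b2 (chr7:110961038-110962510) at 6.68 kb and Hba-x (chr11:32176400-32178116) at 8.51 kb. The distance was 20.8 kb for Hbb-b1 (chr7:110975048-110976610), 35.8 kb for Hbb-bh1 (chr7:110990150-110991678) and 45.9 kb for Hbb-y (chr7:111000259-111001754). All 4 beta genes lie on the minus strand, so the order from Hbb-b2 to Hbb-y is also the order of growing distance from the same CTCF peak beside Hbb-b2. The nearest Rad21 peak was 3.15 kb from the start of Hba-a1, 6.78 kb from Hbb-b2, 8.61 kb from Hba-x and 46.0 kb from Hbb-y.

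Part of these genes could not be seen with uniquely mapped reads. The duplicated adult genes are near copies of each other: Hbb-b1 and Hbb-b2 were identical at 95.7% of aligned bases, and Hba-a1 differed from Hba-a2 at 1 base of 794. Of the 50 bp sequences starting in a gene, 94.8% in Hba-a1, 69.0% in Hbb-b2 and 65.1% in Hbb-b1 occurred more than once in the genome. The share was 2.4% in Hba-x, 0.0% in Hbb-bh1 and 0.0% in Hbb-y, so the embryonic genes were open to unique reads over nearly all their length and were still without a peak. The lack of a peak on the adult genes is therefore limited by the copies, and the part of the copies in it was not tested.

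The beta genes lay in a long stretch without CTCF, which ended at a strong CAC site on the left and at a weak Lone CTCF peak on the right, with a second strong CAC site further to the right. The site on the left (chr7:110955354-110955829, 476 bp) was intergenic, 5.21 kb beyond the 3′ end of Hbb-b2, and had a CTCF fold enrichment of 19.4, above 89.8% of all CTCF peaks. The cohesin-bound site on the right (chr7:111091307-111091706) lay 89.6 kb beyond Hbb-y and 3.59 kb upstream of the olfactory receptor gene Olfr633, with a CTCF fold enrichment of 22.3, above 95.2% of the list. Both were among the strongest 20% of CTCF peaks in liver (fold enrichment of 15 or more).

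The other 2 CTCF peaks of the beta window were weak and had no Rad21 peak. The first (chr7:110941442-110941638), 1.22 kb upstream of Olfr67, had a fold enrichment of 3.99 and lay above 28.3% of the list. The second (chr7:111061590-111061799), 1.90 kb upstream of Olfr631, had a fold enrichment of 3.71 and lay above 23.4%. The list median was 6.05, so the beta peaks fell into a pair of high CTCF enrichment with a Rad21 peak and a pair of low enrichment without one. The Rad21 peak at the left site, with a −log10 q of 9.62, was lost with a minimum −log10 q of 10 or a minimum fold enrichment of 5, which left 1 CAC site of 2 CTCF peaks. The CAC share was 2 of 4, or 50% (Wilson 95% interval 15 to 85, counting error only), beside 73.7% of the whole CTCF list, a difference within the interval.

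**Figure D1:**
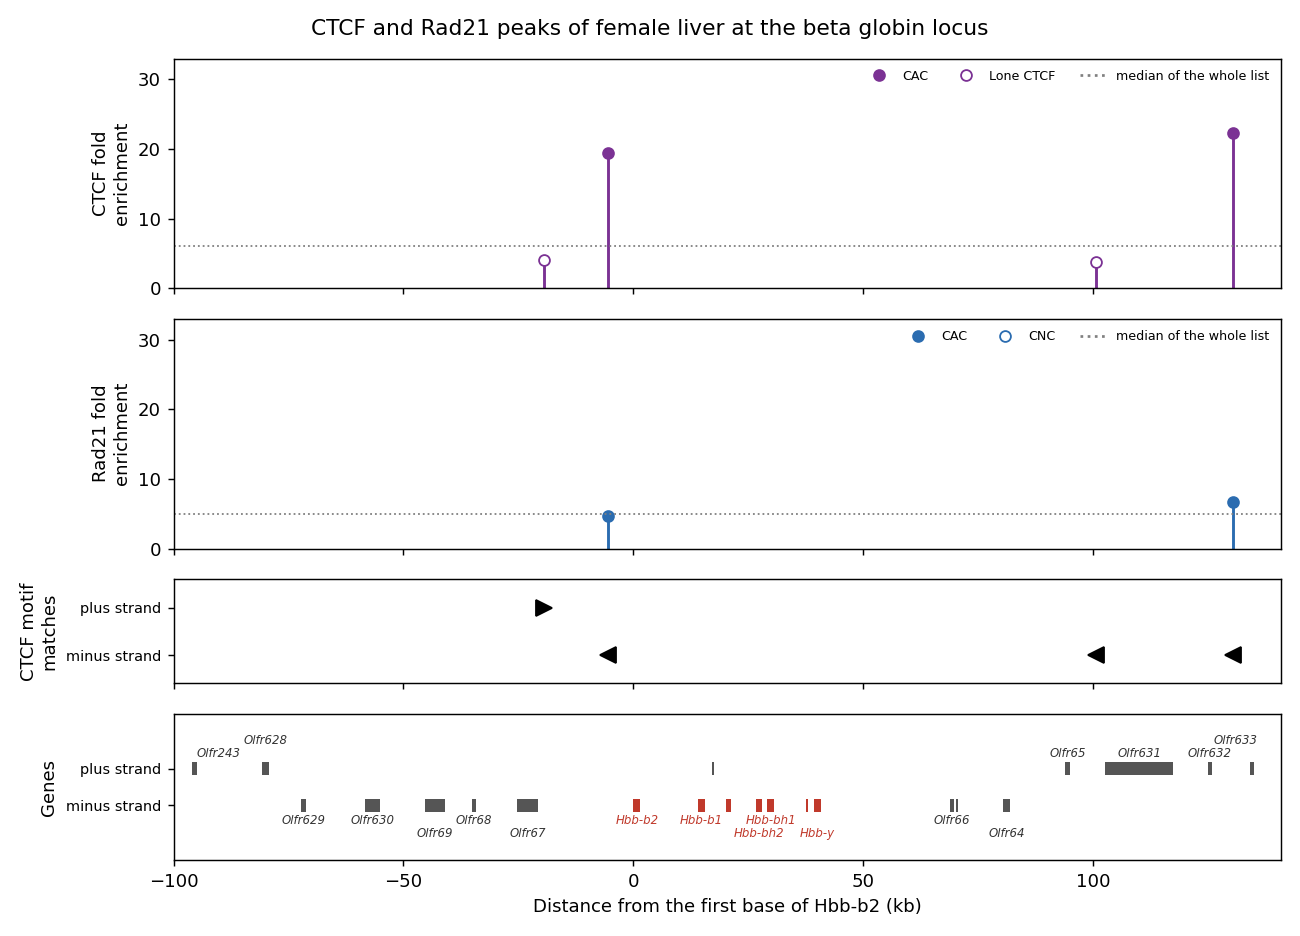
CTCF and Rad21 peaks at the beta locus, by distance in kb from the first base of Hbb-b2 (x axis). The upper panels give the fold enrichment of each peak as a stem, filled for CAC peaks and open for peaks of 1 factor alone, with the list median dotted; arrowheads give the strand of CTCF motif matches, filled where a CTCF peak covers them, and bars give genes, with globin genes in red. The 2 filled CTCF stems at 19.4 and 22.3 stand on each side of the globin genes, and their Rad21 stems reach 4.64 and 6.63.

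The peak-free stretch around the beta genes was long by the standard of the list. From the left CAC peak to the weak peak near Olfr631, 106 kb held no CTCF peak, and this gap contained all beta globin genes together with Olfr66, Olfr64 and Olfr65. The median gap between neighbouring autosomal CTCF peaks was 11.5 kb, and 5.91% of gaps were at least as long. Such shares count gaps. A long gap covers more sequence than a short one, so a larger share of the genome lies in gaps this long. Gap lengths around other olfactory receptor genes are not given here. Counting CAC peaks alone, the gap was 135 kb (6.20% of CAC gaps as long, median 16.1 kb), and the Rad21 gap was 136 kb (4.17% as long, median 11 kb). Beyond the outer peaks the binding was sparser still. No CTCF peak lay within 873 kb to the left of the leftmost beta peak, a length reached by 0.339% of gaps, and the next peak to the right of Olfr633's site was 257 kb away, reached by 2% of gaps.

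Olfactory receptor genes make up this setting. All 13 protein-coding genes of the beta window other than globin genes were olfactory receptor genes, and none had a CTCF or Rad21 peak within 1 kb of its start. Around the 1068 other autosomal olfactory receptor genes, 0.468% of starts had a CTCF peak within 1 kb and 0.375% had a Rad21 peak. The beta window had 16.6 CTCF peaks per Mb, near the 15.3 per Mb found within 100 kb of those genes, and below the 27.1 per Mb of the autosomes. It had 8.31 Rad21 peaks per Mb, beside 13.6 per Mb around olfactory receptor genes and 27.2 per Mb over the autosomes. Autosomal tiles of the same length held a median of 4 CTCF peaks, the number in the beta window.

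Cohesin at the beta sites was low for the CTCF fold enrichment there. By −log10 q, CTCF reached 131 at the left site and 167 at the right site. Alpha CTCF peaks with a fold enrichment of 16.2 had 344, 282 and 309, so the measures of CTCF rank these sites differently. The comparison below ranks CTCF by fold enrichment only. The Rad21 peak at the left site (chr7:110955475-110955731) had a fold enrichment of 4.64, just under the Rad21 list median of 4.93. The Rad21 peak at the right site (chr7:111091336-111091648) had a fold enrichment of 6.63, above 65.5% of the list. Over the 13618 CAC peaks among the strongest 20% of CTCF peaks, the Rad21 fold enrichment had a median of 15.1, with quartiles of 10.7 and 19.2. Of these, 1.93% had a lower Rad21 value than the left beta site and 7.42% a lower value than the right one. The Rad21 and CTCF summits were nevertheless only 6 bp apart at the left site and 12 bp apart at the right site. The closest CAC peaks outside the window did not share the low Rad21 values: the CTCF peak 793 kb to the left (fold enrichment of 19.8) had a Rad21 value of 16.9, and the one 247 kb to the right (30.3) had 29.1.

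All 4 beta CTCF peaks held a called motif, beside 44.1% over the odd-numbered autosomes, and these were the only 4 matches at this score anywhere in the window. The scores were 18.76, 17.39, 19.81 and 21.14 bits from left to right, so the weak Lone CTCF peaks did not have the weaker motifs. The motif under the left CAC peak had the lowest score of the 4. Both CAC motifs lay on the minus strand, so the left one pointed away from the globin genes and the right one toward them, and the CAC sites next to the genes were thus not a convergent pair. The one plus-strand motif, at the Lone CTCF peak near Olfr67, pointed toward the genes.

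No motif was called between Hbb-b2 and Hbb-y (40.7 kb), where the best score was 13.44 bits. Between Hbb-y and Olfr66, 28.1 kb on the side where the locus control region lies, the best match scored 14.52 bits (chr7:111023153-111023172, minus strand), under the called score, and neither list had a peak there. Of the 50 bp sequences in this stretch, 6.3% were not unique, beside 19.6% across the beta gene span. No match means only that a sequence of this score was not in the interval.

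The alpha window was crowded in comparison. It had 76.9 CTCF peaks per Mb and 67.3 Rad21 peaks per Mb, more than 90.7% and 86.2% of autosomal tiles of the same length, respectively. Of its 16 CTCF peaks, 13 were CAC (81.2%, Wilson 95% interval 57 to 93.4, beside 73.7% of the list), and 11 were above the list median in fold enrichment. A CTCF fold enrichment of at least 10 was found at 8 of these 16 peaks and at 2 of the 4 beta peaks, beside 33.3% of the list. Of its 14 Rad21 peaks, 13 overlapped CTCF (92.9%, 68.5 to 98.7, beside 73.6% of the list). Both shares had intervals that contain the share of the whole list. The median distance between the Rad21 and CTCF summits of the 13 CAC peaks was 25 bp, and 11 were within 50 bp.

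**Figure D2:**
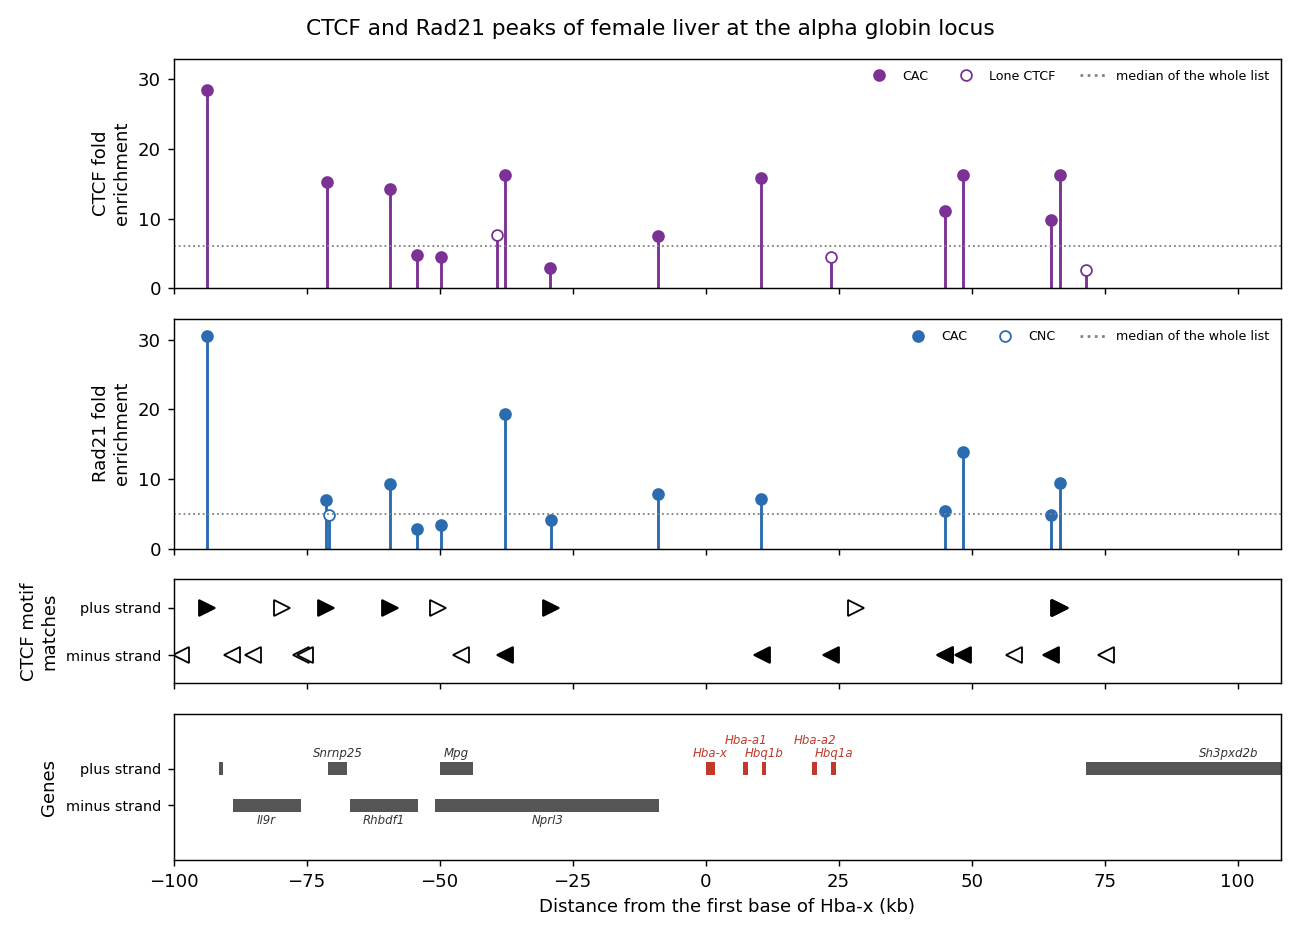
CTCF and Rad21 peaks at the alpha locus, by distance in kb from the first base of Hba-x (x axis), drawn as for the beta locus, with the unnamed bar being a pseudogene. The leftmost CAC peak is the highest in both panels (28.5 for CTCF and 30.5 for Rad21), 4 of the 5 filled arrowheads left of Hba-x are on the plus strand, and the open arrowheads are the 11 motif matches that no CTCF peak covers.

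The strongest binding stood at the left edge. The CTCF peak at chr11:32082526-32082941, intergenic and 17.6 kb downstream of the start of the interleukin receptor gene Il9r, had a fold enrichment of 28.5 and ranked 253 in the CTCF list. Its Rad21 peak (chr11:32082544-32082930) had a fold enrichment of 30.5 and ranked 19 in the Rad21 list. Its motif scored 15.93 bits, close to the lowest score that was called, so the most enriched site of the locus did not have a strong motif. The next highest CTCF value in the alpha window was 16.2.

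Between this site and the alpha genes lay the protein-coding genes Il9r, Snrnp25 (a splicing factor gene) and Rhbdf1 (an inactive rhomboid protease). Closer to the alpha genes lay Mpg (a DNA glycosylase of base excision repair) and Nprl3 (a subunit of the GATOR1 complex that restrains mTORC1). A CAC peak 0.251 kb upstream of the start of Snrnp25 (chr11:32104981-32105348) had values of 15.3 for CTCF and 7.01 for Rad21. A CAC peak in an exon of a Rhbdf1 transcript (chr11:32116709-32117202) had values of 14.3 for CTCF and 9.24 for Rad21, with a plus-strand motif of 21.57 bits. These were the strong sites of this stretch outside Nprl3.

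CTCF peaks also stood at the starts of Rhbdf1, Mpg and Nprl3, and none of these had a called motif. The peak 101 bp from the start of Rhbdf1 (chr11:32121808-32122473) was weak, at 4.82 for CTCF and 2.75 for Rad21. The peak in the first part of Mpg (chr11:32126495-32126896), which also lies in an untranslated region near the 3′ end of Nprl3, had values of 4.50 and 3.35, with summits 129 bp apart, the widest separation of any CAC peak in the windows. The peak at the start of Nprl3 (chr11:32167045-32167886) was the broadest CTCF peak at 842 bp, with values of 7.52 and 7.81, and was the closest peak on the left of Hba-x, at 8.51 kb. In the alpha window, 5 of the 6 CTCF peaks without a motif lay within 1 kb of a gene start, and the remaining one was in an Nprl3 exon. Of the 10 CTCF peaks with a called motif, 2 lay that close to a start. Over the odd-numbered autosomes the shares were 27.5% of CTCF peaks without a called motif and 7.09% of those with one. The 5 include the peak at Hbq1a, which covers a motif of 24.72 bits that lies beyond the 100 bp searched around its summit. At the starts of the 6 protein-coding genes other than globin genes, 5 had a CTCF peak within 1 kb and 4 had a Rad21 peak, with Il9r having neither.

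Nprl3 itself, whose introns hold the known alpha globin enhancers, carried 3 further CTCF peaks within its body. The strongest was an intronic CAC peak (chr11:32138430-32138890) at 16.2 for CTCF and 19.3 for Rad21, the latter above 94.9% of the Rad21 list. Its minus-strand motif of 20.03 bits was the one on this side that pointed away from the globin genes. Only 1.01 kb to its left, a Lone CTCF peak in an exon (chr11:32136964-32137421) had a fold enrichment of 7.62 and no motif. A weak intronic CAC peak (chr11:32147176-32147372) had a CTCF value of 2.89, above 6.18% of the list, with a Rad21 value of 4.15 and a plus-strand motif of 15.39 bits. Between this peak and the start of Nprl3, 19.7 kb held no CTCF peak.

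From the start of Nprl3 to Hbq1b, an 18.8 kb gap without CTCF held Hba-x and Hba-a1. Gaps of at least this length made up 35.3% of autosomal CTCF gaps, so the alpha genes lay in a gap of common length, unlike the beta genes. From Hba-x to Hba-a1 no motif was called, and the best score was 10.49 bits. The adult gene Hba-a2, which lies outside the span of the member genes, was in the next gap of 12.7 kb between the theta copies. For Rad21, the gap to the right of Hbq1b was 34.2 kb and held Hba-a2 and Hbq1a.

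On the right side, a group of 4 CAC peaks stood between Hbq1a and Sh3pxd2b, an adaptor gene of podosomes. The first (chr11:32221141-32221607) had values of 11.1 for CTCF and 5.37 for Rad21. The second (chr11:32224591-32225064) had values of 16.2 and 13.8, the highest Rad21 value right of the genes. The remaining ones were 6.51 kb (chr11:32241113-32241512, values of 9.78 and 4.75) and 4.85 kb (chr11:32242731-32243201, values of 16.2 and 9.48) upstream of Sh3pxd2b. A weak Lone CTCF peak (chr11:32247881-32248175) lay 109 bp inside Sh3pxd2b, with a fold enrichment of 2.67 that was above 3.20% of the list. To its right, 102 kb held no CTCF peak.

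The single CNC peak of either window was at Snrnp25. It lay 174 bp from the start of that gene (chr11:32105455-32105761), had a Rad21 fold enrichment of 4.76, and was 118 bp from the Rad21 peak of the CAC site upstream of Snrnp25. The Lone CTCF peaks of the alpha window were those in the Nprl3 exon, at Hbq1a and at Sh3pxd2b, with CTCF values of 7.62, 4.54 and 2.67. Over both windows the 5 Lone CTCF peaks had values of 2.67 to 7.62, and 1 of them was above the list median of 6.05.

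Within the alpha window, most motifs called for CTCF peaks outside the gene cluster pointed toward it. Of the 10 alpha CTCF peaks with a motif, all CAC, 5 lay left of Hba-x and 4 of these were on the plus strand, pointing right. To the right of Hbq1a lay 4, of which 3 were on the minus strand, pointing left. The exceptions were the Nprl3 intron peak on the left and the peak 4.85 kb upstream of Sh3pxd2b on the right. The remaining motif, at Hbq1b, lay inside the cluster on the minus strand, pointing toward Hba-a1 and Hba-x and away from Hba-a2 and Hbq1a. Motif direction was thus toward the cluster for 7 of the 9 alpha sites outside it and for 3 of 4 beta sites. For the CAC sites alone it was 1 of 2 at the beta locus. Each peak counts once, by its best match, and these small counts were not set beside a share over the list. The next CTCF peaks beyond the alpha window pointed away from the cluster, with a minus-strand motif of 23.11 bits 13.8 kb outside on the left (CTCF fold enrichment of 22.9) and a plus-strand motif of 17.74 bits 65.6 kb outside on the right (17.5). Rad21 peaks held a called motif near their summit in 9 of 14 cases at the alpha locus and in both cases at the beta locus. On odd-numbered autosomes 33.7% of Rad21 peaks did, and 44.5% of those that overlap CTCF, as nearly all Rad21 peaks of the windows do.

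Methylation of a CpG in the motif can weaken CTCF binding, so the CpG content of the motifs was counted. None of the 4 beta motifs held a CpG (Wilson 95% interval 0 to 49%), and 6 of 10 alpha motifs did (60%, interval 31.3 to 83.2). Of motifs in CTCF peaks on odd-numbered autosomes 44.6% did, a share within both intervals. Methylation was not measured in these data.

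The theta-like genes Hbq1b and Hbq1a were the only globin genes with a peak at their start, and the peaks called there differed between the copies. At Hbq1b, a CAC peak (chr11:32186672-32187144) reached 15.8 for CTCF, above 81.8% of the list, and 7.13 for Rad21, above 68.3%. At Hbq1a, a Lone CTCF peak (chr11:32199833-32200130) had a fold enrichment of 4.54, above 36.1% of the list, and no Rad21 peak. The peak sequence at Hbq1b and its copy at Hbq1a (chr11:32199788-32200249) were identical at 96.3% of bases, with 17 differences over 462 aligned, and the motif and its 15 bases on each side were the same at both, as printed above. The same motif sequence was thus covered by a CTCF peak of high enrichment at one copy and of low enrichment at the other.

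Near the motif, exact repeats in mm9 were alike at both copies. Within 100 bp of the motif centre, 43.3% of 50 bp sequences were not unique at either copy, and 7 of 201 bases were covered by no unique 50 bp sequence at either. The summits were displaced: the CTCF summit lay 83.5 bp from the motif centre at Hbq1b and 115.5 bp at Hbq1a, and the Rad21 summit at Hbq1b lay 101.5 bp away. At the other 13 CTCF peaks with a motif in both windows, this distance was 4.5 to 50.5 bp, with a median of 22.5 bp. Because of the displacement, the Hbq1a motif was outside the 100 bp searched and the peak was counted as without a motif. Across the 481 bases spanned by the 3 theta peaks, placed by distance from the motif centre, the number of unique 50 bp sequences over each base was the same at both copies, and so was that of unique 36 bp sequences. Beyond the peaks the copies differed. At −336 bp the number of unique 50 bp sequences was 0 at Hbq1a and 50 at Hbq1b, and at −440 bp it was 50 and 0. How reads mapped at the copies was not measured. The part of mapping in the difference between their peaks was not tested.

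**Figure D3:**
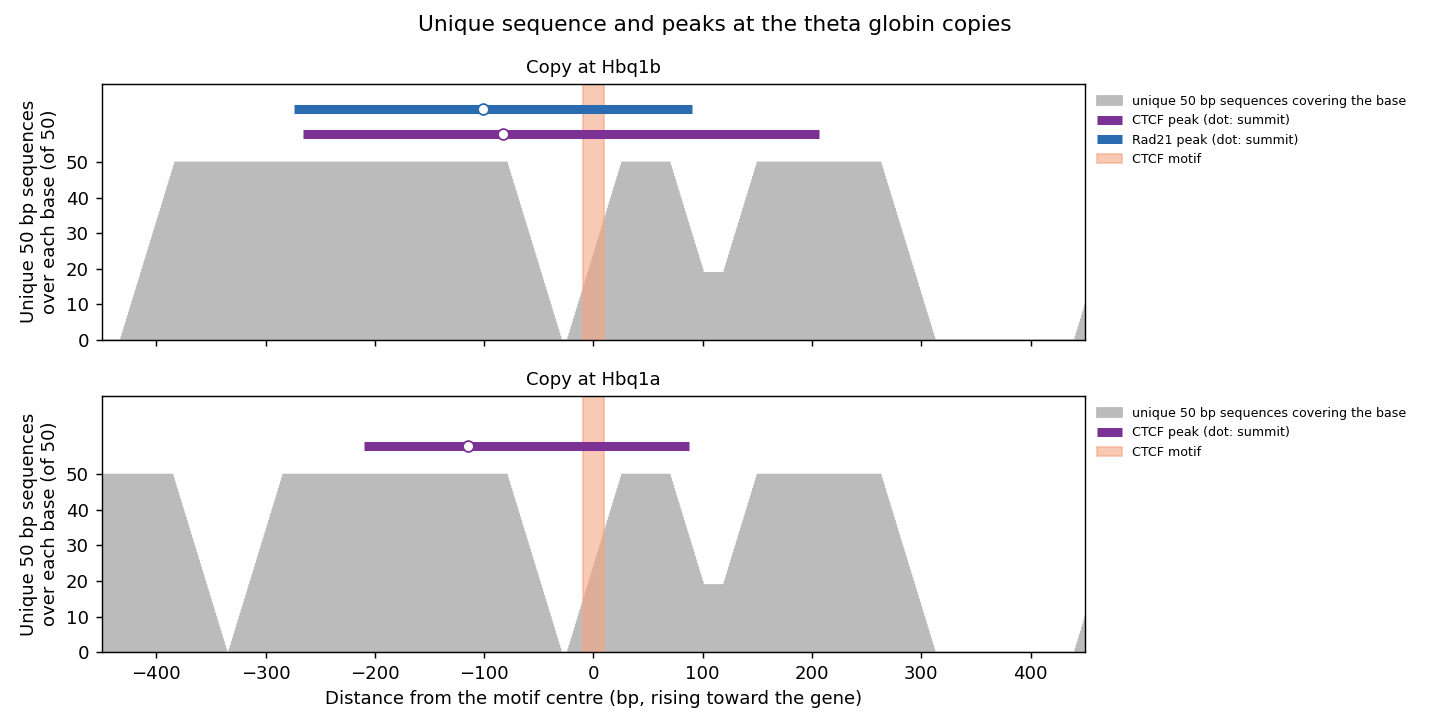
Peaks and unique sequence at the theta copies Hbq1b (top) and Hbq1a (bottom), by distance in bp from the centre of the shared motif (x axis, rising toward the gene). Grey gives how many of the 50 possible 50 bp sequences over each base are unique in mm9 (y axis), bars give the extent of the CTCF and Rad21 peaks with a dot at the summit, and the orange band is the motif. The summits lie 83.5 and 101.5 bp from the motif centre at Hbq1b and 115.5 bp at Hbq1a, where there is no Rad21 bar, and the grey profile is the same in both panels over the extent of all bars.

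Motif matches were dense at the alpha locus, and a CTCF peak covered some and not others. Over the whole alpha window, 25 matches were found at the called score or above (120 per Mb, beside 53.1 per Mb on chromosomes 7 and 11). A CTCF peak covered 14 of these and left 11 uncovered, whereas all 4 beta matches were covered. On chromosomes 7 and 11 together, 32.5% of matches were covered by a CTCF peak, and 76.5% of matches of 20 bits or more. The highest-scoring uncovered match, at 19.34 bits (chr11:32234280-32234299, minus strand), lay between the right-hand CAC peaks and 6.81 kb from the nearest of them, and 71.0% of matches of its score or above on these chromosomes were covered.

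The alpha CAC sites varied widely in Rad21 for sites of high CTCF fold enrichment. Among the 6 alpha peaks in the strongest 20% of CTCF peaks, the leftmost site (Rad21 value of 30.5) was above 99.9% of CAC peaks in that class, the Nprl3 intron site (19.3) above 75.4%, and the second site right of Hbq1a (13.8) above 42.1%. The site 4.85 kb upstream of Sh3pxd2b (9.48) was above 18.8%, the Hbq1b site (7.13) above 9.08% and the Snrnp25 site (7.01) above 8.86%. The alpha sites thus spread from low to high Rad21, while both beta sites were low for their CTCF fold enrichment. The Hbq1b and Snrnp25 sites also had the lowest CTCF −log10 q of the 6, at 104 and 122. The others had 282 to 414. Whether the choice of CTCF measure bears on these ranks was not tested.

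**Figure D4:**
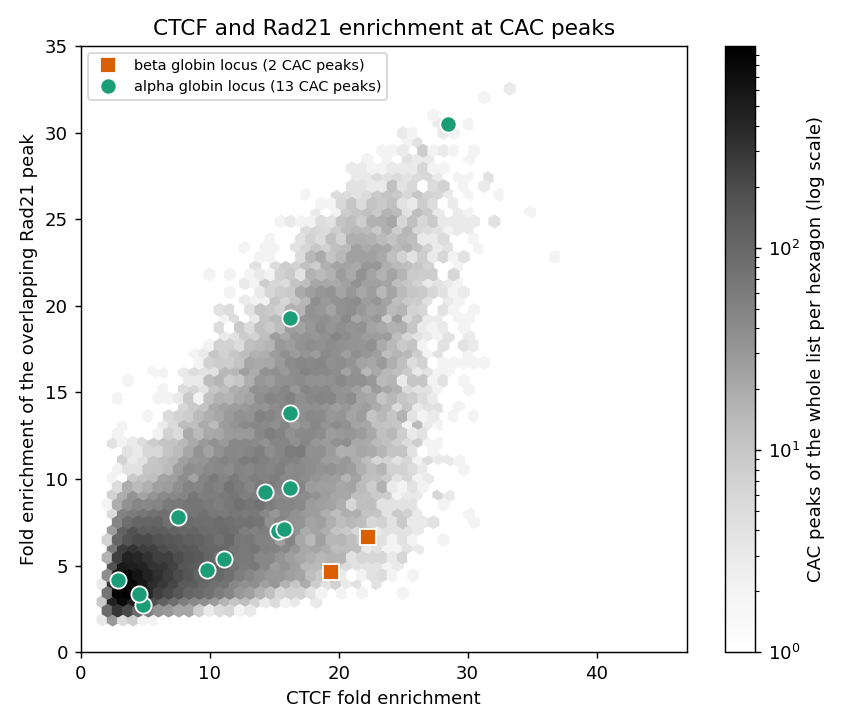
CTCF fold enrichment (x axis) and the fold enrichment of the overlapping Rad21 peak (y axis) for all CAC peaks of the list, drawn as grey hexagons whose shade gives the number of peaks on a log scale, with the 2 beta CAC peaks as orange squares and the 13 alpha CAC peaks as green circles. The beta squares lie at the lower edge of the cloud for their CTCF value, with Rad21 values of 4.64 and 6.63, and the leftmost alpha site lies at the upper right.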

How the data were processed

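CTCF and Rad21 ChIP-seq libraries (4 and 3) were made from female liver nuclei. As stated by the study, reads were mapped to mm9 with Bowtie2, uniquely mapped reads were kept, peaks were called with MACS2 at default settings on the pooled libraries of a factor, and peaks in blacklisted regions or made of identical reads were removed. The deposited values were the fold enrichment (a ratio to local background), the −log10 q-value and a score, beside a −log10 p-value not used here; read counts and depth per library were not analysed. No columns of single libraries exist in the lists. Because reads were mapped uniquely, enrichment at near-identical globin copies is measured only where sequences differ.

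Peaks were intersected with GENCODE gene models of mm9 (NCBIM37) by 1 bp. The motif matrix was learned from the 1000 strongest CTCF peaks of even-numbered autosomes (lowest fold enrichment 23.6) and scored on both strands; its threshold came from 66668 flanking windows on odd-numbered autosomes, 1000 bp from summits. Non-unique sequence was the share of 50 bp (alternatively 36 bp) sequences found more than once in mm9, as the read length was not given in the sources used here. Overlap, motif and repeat steps were checked on simulated data. Genes were named by rule: the globin genes, the flanking peaks, every CTCF peak with a motif, the 3 strongest peaks per list in each window, and the genes next to them; other peaks were described after their values were seen. Shares have Wilson 95% intervals for counting error only. No test was run, since pooled peaks have no replicates. The members and lists were chosen with earlier results of these data known. Alternatives were stricter peaks (fold enrichment of 5 or more, or −log10 q of 10 or more), windows of 50 and 200 kb, overlap of summits within 100 bp, and other motif and repeat settings. Tools were Python 3.11.15, numpy 2.4.6, pandas 2.3.3, scipy 1.17.1, biopython 1.88, matplotlib 3.10.9 and samtools 1.23.1.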

Additional observations from a re-analysis of the deposited data

How the results depend on the processing

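Counts, medians and non-unique shares were taken as moved when they changed by over 1.5 times, and overlap shares when they left the Wilson interval of the reported share. By this measure 19 recomputed values moved and 67 did not, beside 4 that gave only another interval for the same share. With a minimum −log10 q of 10, and equally with a minimum fold enrichment of 5, the beta window kept 2 CTCF peaks (both with a motif) and 1 Rad21 peak, and its median CTCF fold enrichment rose from 11.7 to 20.8, since the weak Lone CTCF peaks dropped out. The Rad21 peak lost in both cases was that of the left-hand CAC site beside Hbb-b2, so 1 of the 2 CTCF peaks still overlapped Rad21. With 50 kb on each side the beta window also kept 2 CTCF peaks, both with a motif, and 1 Rad21 peak, since the right-hand CAC site lies beyond that distance. The alpha window held 9 CTCF peaks (5 with a motif) and 7 Rad21 peaks with 50 kb on each side, and 25 CTCF peaks (17 with a motif) with 200 kb. A minimum fold enrichment of 5 left 9 alpha Rad21 peaks. Under that minimum and under the 50 kb window, the share of alpha Rad21 peaks that overlapped CTCF was 100% (9 of 9 and 7 of 7). Taking the span of every annotated globin gene, an alternative chosen after seeing the data, moved none of the peak counts, motif counts, overlap shares and median fold enrichments, which were the values recomputed under it. No paired analysis was possible because the lists were called on pooled libraries and carry no values of single libraries. For the same reason no library could be left out, the spread between mice is unknown, and a peak missing from a list may lie under the caller's threshold.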
